A study of Mus musculus with 8 samples.

Results

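The 30 genes described here make, take up and export cholesterol or control these steps, and they were chosen by name from 31053 gene identifiers in the count tables. Of the 30 genes, 7 encode enzymes of the mevalonate arm, 11 enzymes of the squalene and sterol arm, 5 regulators of the SREBP transcription factors, 3 proteins of uptake and intracellular carriage, and 4 efflux transporters and LXR receptors. Each Ensembl identifier was matched to its symbol, and all 30 genes were found in the tables. The study isolated retinal pigment epithelium (RPE) from C57/Bl6 mice at postnatal day 29 (P29) and compared 4 *Bbs8*-/- mice with 4 *Bbs8*+/+ littermates, each animal giving 1 library. *Bbs8* encodes a subunit of the BBSome, a complex that moves membrane proteins in and out of cilia. The deletion is constitutive and not restricted to the RPE, so the neighbouring photoreceptors of the *Bbs8*-/- mice also lacked the gene, and the labels give no sex for the animals. RNA was sequenced with QuantSeq, which reads the 3′ end of each transcript. Levels are counts relative to library size (CPM) after scaling by edgeR's TMM factors, they are not divided by transcript length, and they are compared here between libraries and not between genes.

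Cells build cholesterol from acetyl-CoA. The mevalonate arm ends in farnesyl diphosphate, from which dolichol, ubiquinone and prenyl anchors are also made, and the squalene and sterol arm turns it into cholesterol. SREBP transcription factors are held in the endoplasmic reticulum by INSIG and SCAP while sterol is plentiful and move to the Golgi, where they are cut and released, when it is scarce. LXR receptors respond to oxysterols and raise genes of cholesterol export. The RPE takes in cholesterol from the blood side and from the outer segment tips of photoreceptors that it engulfs each day, and it returns lipid to both sides.

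Cholesterol genes changed in part and not as a block in *Bbs8*-/- RPE. Among the synthesis enzymes, *Pmvk*, *Fdps* and *Msmo1* were up-regulated by 1.31-fold to 1.81-fold, and the transcription factor gene *Srebf1* was up-regulated 2.09-fold. In the efflux group the transporter gene *Abca1* was up-regulated 1.55-fold, while its counterpart *Abcg1* and the LXR gene *Nr1h2* were down-regulated 2.55-fold and 1.61-fold. Genes at the head of the pathway and of its control were mixed. *Hmgcs1*, *Mvk*, *Scap* and *Insig1* had log2 fold changes within 0.08 of 0. The confidence intervals of *Mvk* (−0.48 to 0.48) and *Insig1* (−0.56 to 0.41) leave room for a change. *Acat2*, which opens the pathway, had a log2 fold change of −0.15. Among the control genes *Srebf2* and *Insig2* had values of 0.43 and 0.68, with genotypes that did not overlap, but did not pass the test described below.

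In numbers, 29 of the 30 genes had at least 1 CPM in at least 4 libraries and were tested. With edgeR's quasi-likelihood test and Benjamini-Hochberg adjustment over all 12889 tested genes at a threshold of 0.05, 5 genes were up-regulated and 2 down-regulated, which is 24.1% of the 29 beside 12.3% of all tested genes. The share fell to near that of all genes when either of a pair of libraries was left out: 3 of the 29 genes (10.3%) were called without *Bbs8*-/- replicate 1, beside 10.8% of all genes, and likewise 3 (10.3%) without *Bbs8*+/+ replicate 4, beside 9.86%. The share up-regulated was 17.2% beside 5.46% of all genes, and the share down-regulated was 6.90% beside 6.8% of all genes. The 30 genes were chosen with earlier results of these data known, so these shares are descriptions and not independent evidence. The median log2 fold change of the 29 genes was 0.12 and that of all tested genes was 0.022. The genotypes were fully separated, with every library on its own side, in 8 genes that lay higher in *Bbs8*-/- RPE (7.42% of all tested genes did so) and in 1 gene that lay lower (8.64% of all tested genes). Scaling by library size alone gave 8 up-regulated genes and 1 down-regulated gene (31% beside 12.9% of all tested genes). It moved the median of all genes by 0.089 on the log2 scale. Because the tissue was sequenced in bulk, fewer cells of a type and less RNA per cell cannot be told apart in any of these differences. The p-values set each difference against the variation between animals as the fit estimates it.

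**Figure D1:**
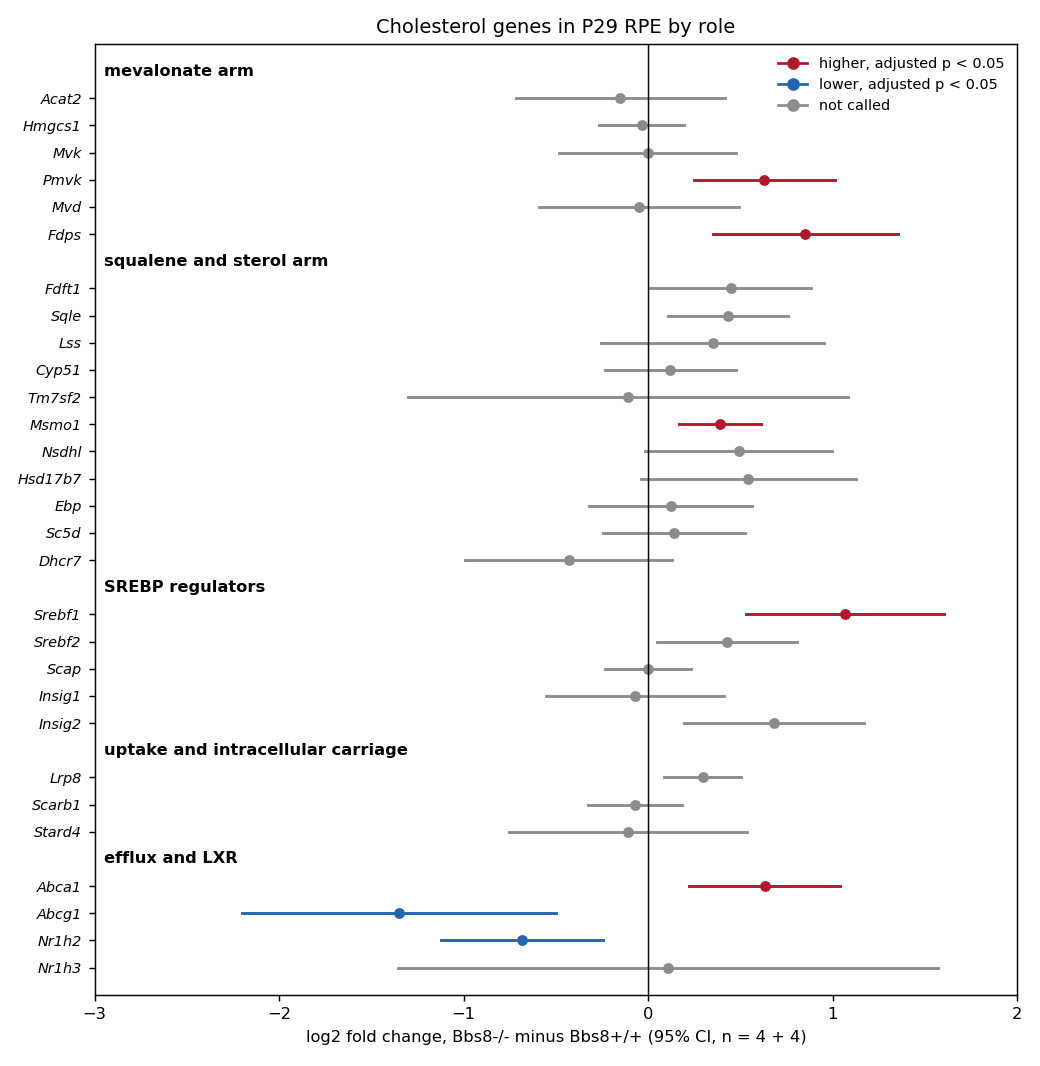
Log2 fold change of each tested gene in *Bbs8*-/- over *Bbs8*+/+ RPE (x axis, points) with its 95% confidence interval (lines), grouped by role, from 4 libraries per genotype. Red marks the 5 up-regulated and blue the 2 down-regulated genes, and the intervals of most of the other genes cross 0.

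The labels were first checked with *Ttc8*, the annotated name of *Bbs8*. *Bbs8*+/+ libraries held 105, 142, 144 and 116 counts of it and *Bbs8*-/- libraries 15, 5, 14 and 15 counts. All 4 *Bbs8*-/- libraries lay below all 4 *Bbs8*+/+ libraries, and *Ttc8* fell by 3.34 on the log2 scale (adjusted p = 2.48e-11, edgeR's quasi-likelihood test). Counts on genes ranged from 2389835 to 3093428 per library, so that 3 counts, taken as a floor for counting error only, equal 0.970 to 1.26 CPM. All 12 RPE marker genes were detected and tested, and 4 were higher and 3 lower. Their median log2 fold change was −0.016, with 5 values above 0 and 7 below. Their summed level, in which abundant genes weigh most, was 36352 to 37347 CPM in *Bbs8*+/+ and 45073 to 48732 CPM in *Bbs8*-/- libraries. Markers of other cell types also differed between the genotypes. The 25 photoreceptor markers summed to 63870 to 67343 CPM in *Bbs8*+/+ and 27163 to 27923 CPM in *Bbs8*-/- libraries, and 17 of them were lower and 5 higher. The 21 lens markers summed to 3528 to 3719 CPM against 482 to 527 CPM, with all 20 tested markers lower. Among the 7 tested of 9 erythrocyte markers, 5 were lower, and the sum went from 5210.2 to 5767 CPM down to 2043 to 2288 CPM. Among the 11 markers of Müller and reactive glia, 6 were higher, with sums of 1245 to 1492 CPM against 2523 to 2709 CPM, and 5 of 7 ocular surface keratins and related genes were higher, with sums of 1.87 to 4.07 CPM against 62.9 to 89.4 CPM and *Krt12* at 0 in every library. Markers of inner retinal neurons had 1 higher and 1 lower of 11 tested, and those of choroid fibroblasts 2 lower of 8. Microglia, endothelium and choroid melanocyte markers had 0 calls by edgeR's quasi-likelihood test and by DESeq2, with 1, 0 and 2 genes at an unadjusted p under 0.05. The part of these other cells in the differences of the cholesterol genes was not tested. When TMM factors were computed without photoreceptor, lens and erythrocyte genes, the same 5 genes were up-regulated and the same 2 down-regulated. This setting changes the scaling alone, by a median of −0.0062 on the log2 scale, and does not measure the part of these cells.

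Promoter sequence from RefSeq (GRCm38.p6) was read for 24 of the 30 genes, in 35 windows from 250 bases before to 50 bases after a transcript start. The windows were searched on both strands for the sterol response element TCACNCCAC, to which SREBP binds, and for CCAAT and GGGCGG, the boxes of NF-Y and Sp1 that often stand beside it. No window was at hand for *Fdps*, *Fdft1*, *Sqle*, *Scarb1*, *Stard4* and *Abcg1*, which were not searched. *Hmgcs1* was the only gene of the 24 whose window held TCACNCCAC. This is 2.86% of the windows of the 24 genes, beside 1.24% of all 32851 windows. CCAAT was found in 18 of the 24 genes and in 54.3% of their windows, beside 37.4% of all windows. GGGCGG was found in 20 of the 24 genes and in 68.6% of their windows, beside 35.7% of all windows. A match is a description of the letters and not of binding. The 180 bases before the start are shown for 4 genes that changed (*Pmvk*, *Msmo1*, *Abca1* and *Nr1h2*) and for *Hmgcs1*, which did not and was picked because it holds the element, each 5′ to 3′ in the direction of its gene. Capitals mark any of the motifs or its reverse complement. The windows lie at chr3:89454361-89454540 (plus strand, *Pmvk*), chr8:64733579-64733758 (minus strand, *Msmo1*), chr4:53159896-53160075 (minus strand, *Abca1*), chr7:44553966-44554145 (minus strand, *Nr1h2*) and chr13:119690171-119690350 (plus strand, *Hmgcs1*).
Hmgcs1: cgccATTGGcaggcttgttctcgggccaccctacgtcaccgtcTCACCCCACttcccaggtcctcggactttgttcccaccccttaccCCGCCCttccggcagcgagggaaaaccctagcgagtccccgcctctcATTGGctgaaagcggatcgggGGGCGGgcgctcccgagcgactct
Msmo1: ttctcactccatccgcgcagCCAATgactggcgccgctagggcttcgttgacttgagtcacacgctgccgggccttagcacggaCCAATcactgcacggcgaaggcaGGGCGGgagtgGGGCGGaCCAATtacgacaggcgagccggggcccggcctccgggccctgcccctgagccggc
Pmvk: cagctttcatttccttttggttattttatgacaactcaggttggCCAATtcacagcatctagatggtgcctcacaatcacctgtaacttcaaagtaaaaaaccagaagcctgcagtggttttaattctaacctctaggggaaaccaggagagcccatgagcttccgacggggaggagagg
Abca1: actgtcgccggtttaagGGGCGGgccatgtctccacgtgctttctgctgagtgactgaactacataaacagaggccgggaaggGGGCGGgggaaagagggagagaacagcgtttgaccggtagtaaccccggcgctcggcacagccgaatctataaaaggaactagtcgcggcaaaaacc
Nr1h2: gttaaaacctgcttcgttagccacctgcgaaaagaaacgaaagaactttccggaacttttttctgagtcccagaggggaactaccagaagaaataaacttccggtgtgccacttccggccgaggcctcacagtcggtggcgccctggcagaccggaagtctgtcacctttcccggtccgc
The *Msmo1* stretch holds CCAAT at bases -160, -96 and -55 from the start (first base of each match) and GGGCGG at -73 and -62. It precedes the RefSeq start of *Msmo1* but lies inside the bounds that GENCODE gives for the gene (64718139 to 64733792). *Pmvk* holds a single CCAAT at -136, *Abca1* holds GGGCGG at -163 and -97 and no CCAAT, and the *Nr1h2* stretch holds none of the motifs.

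In the mevalonate arm 2 of the 6 tested genes (33.3%) were up-regulated, beside 5.46% of all tested genes. *Pmvk* (ENSMUSG00000027952) encodes phosphomevalonate kinase and lies on chromosome 3 from 89454541 to 89469013 on the forward strand (GRCm38). Its level was 29.2, 32.9, 31.5 and 27.6 CPM in *Bbs8*+/+ replicates 1 to 4 and 51.8, 48.4, 49.3 and 38.2 CPM in *Bbs8*-/- replicates 1 to 4. Every *Bbs8*-/- library was above every *Bbs8*+/+ library, with replicate 4 the closest to them, and the means were 30.3 ± 2.38 and 46.9 ± 6.02 CPM (SD, n = 4). The log2 fold change was 0.63 ± 0.19 (standard error, adjusted p = 0.0217, edgeR's quasi-likelihood test). The call was lost without *Bbs8*+/+ replicate 4 (adjusted p = 0.0720) and without *Bbs8*-/- replicate 1 (0.0561), 2 (0.0507) or 3 (0.0541), with log2 fold changes of 0.58 to 0.62.

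*Fdps* (ENSMUSG00000059743) encodes farnesyl diphosphate synthase, the enzyme at the branch to sterols and isoprenoids, and lies on chromosome 3 from 89093588 to 89101959 on the reverse strand. It was at 9.50, 29.1, 21.7 and 26.8 CPM in *Bbs8*+/+ and 47.3, 35.5, 38.9 and 35.4 CPM in *Bbs8*-/- libraries. The genotypes did not overlap, and *Bbs8*+/+ replicate 1 was far below the others of its genotype. Means were 21.8 ± 8.76 and 39.3 ± 5.60 CPM (SD, n = 4), and on the log2 scale the rise was 0.85 ± 0.25 (standard error, adjusted p = 0.0172, edgeR's quasi-likelihood test). Without *Bbs8*+/+ replicate 1 the log2 fold change was 0.60 (adjusted p = 0.0766), and without *Bbs8*-/- replicate 1 it was 0.75 (adjusted p = 0.0686). An annotated transcript on the same strand, *Gm43738*, overlaps the exons of *Fdps* and had 0 counts in every library.

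The other enzymes of this arm did not pass the test. *Hmgcs1*, HMG-CoA synthase, whose promoter holds the sterol response element shown above, was at 133, 143, 147 and 158 CPM in *Bbs8*+/+ and 156, 128, 128 and 154 CPM in *Bbs8*-/- libraries. The libraries of the genotypes interleaved, and the log2 fold change was −0.035 with a 95% confidence interval of −0.26 to 0.19. Mevalonate kinase, *Mvk*, was at 27.0 ± 5.06 and 27.0 ± 7.50 CPM (SD, n = 4), and *Mvd*, which decarboxylates mevalonate diphosphate, was at 21.9 ± 7.09 and 21.3 ± 5.79 CPM (SD, n = 4). Their intervals, −0.48 to 0.48 and −0.59 to 0.49, leave room for changes as large as those of some up-regulated genes. *Acat2*, the cytosolic thiolase that opens the pathway, had a log2 fold change of −0.15 (95% interval −0.72 to 0.41), with 1 high library in each genotype. A close paralog, *Acat3*, was at 4.04 and 5.23 CPM, and reads that fit both copies were not counted, since counting used unique reads. *Idi1*, which interconverts the isoprenoid units, was not tested: its counts were 11, 2, 1 and 2 in *Bbs8*+/+ and 0, 13, 11 and 0 in *Bbs8*-/- libraries, which is at or under the floor in 5 of 8 libraries. Summed over the 7 genes, the arm was at 249.9 to 273 CPM in *Bbs8*+/+ and 272 to 321 CPM in *Bbs8*-/- libraries, and these ranges overlap.

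In the squalene and sterol arm 9 of 11 log2 fold changes were above 0, beside 51.8% of all tested genes. The median of the arm was 0.35 beside 0.022 over all tested genes. In this arm 1 gene (9.09%) passed the test, beside 12.3% of all tested genes. This gene was *Msmo1* (ENSMUSG00000031604), which encodes the methylsterol oxidase that starts removal of methyl groups from the sterol ring and lies on chromosome 8 from 64718139 to 64733792 on the reverse strand. Its level was 122, 119, 122 and 126 CPM in *Bbs8*+/+ and 157, 177, 163 and 145 CPM in *Bbs8*-/- libraries. The *Bbs8*+/+ libraries lay close together and all *Bbs8*-/- libraries lay above them, at means of 123 ± 2.87 and 161 ± 13.2 CPM (SD, n = 4). The log2 fold change was 0.39 ± 0.11 (standard error, adjusted p = 0.0133, edgeR's quasi-likelihood test). Without *Bbs8*-/- replicate 2, the highest library, it was 0.34 (adjusted p = 0.0638).

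*Sqle*, squalene epoxidase, a rate-setting step beyond mevalonate, was at 68.2, 80.0, 43.8 and 68.5 CPM in *Bbs8*+/+ and 96.7, 69.6, 88.2 and 98.0 CPM in *Bbs8*-/- libraries. *Bbs8*-/- replicate 2 lay within the *Bbs8*+/+ range, and the log2 fold change of 0.43 missed the threshold (adjusted p = 0.0716, edgeR's quasi-likelihood test). It passed when *Bbs8*+/+ replicate 2 (adjusted p = 0.0386) or *Bbs8*-/- replicate 2 (0.0338) was left out. Squalene synthase, *Fdft1*, was at 30.9 ± 7.04 and 42.1 ± 11.2 CPM (SD, n = 4; log2 fold change 0.45, adjusted p = 0.201). The 3′ end of *Fdft1* overlaps exons of *Ctsb* on the other strand, which was itself up-regulated (log2 fold change 0.38, adjusted p = 0.00223, edgeR's quasi-likelihood test). Whether the counting used strand is not given in the sources used here. Without strand, reads in the shared exons cannot be assigned to either gene, and reads recorded as ambiguous were left out.

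Later sterol enzymes had wide or central intervals. *Nsdhl* and *Hsd17b7*, which act with *Msmo1* in demethylation, had log2 fold changes of 0.49 and 0.54 (adjusted p = 0.233 and 0.259, edgeR's quasi-likelihood test). In *Hsd17b7* 3 of the *Bbs8*-/- libraries lay above all *Bbs8*+/+ libraries and replicate 1 lay below them, at 11.1, 25.8, 27.3 and 20.0 CPM against 12.5 to 16.4 CPM. Lanosterol synthase, *Lss*, was at 13.7 ± 3.02 and 17.5 ± 4.97 CPM (SD, n = 4). *Cyp51* (lanosterol demethylase), *Ebp* (sterol isomerase) and *Sc5d* (sterol desaturase) had log2 fold changes of 0.12, 0.12 and 0.14. *Dhcr7*, the reductase of the last step of the Kandutsch-Russell route, went the other way with −0.43 (95% interval −0.99 to 0.13), and its libraries overlapped. *Tm7sf2*, a sterol reductase, had 4 to 21 counts per library, and its interval of −1.30 to 1.08 is too wide to show a change of the size seen in the other genes. Exons of *Cyp51* overlap *Akap9* on the other strand, at 256 and 253 CPM, and exons of *Tm7sf2* overlap *Vps51* on the same strand, at 5.71 and 6.90 CPM. The transcripts that overlap *Hmgcs1* and *Lss* on the other strand had 0 counts in every library. Summed over the 11 genes, the arm was at 375 to 431 CPM in *Bbs8*+/+ and 496 to 515 CPM in *Bbs8*-/- libraries, 1.23-fold higher in the means, without overlap. Abundant genes weigh most in this sum, such as *Msmo1* (means 123 and 161 CPM) and *Sqle* (65.1 and 88.1 CPM). Taken singly, *Msmo1* alone of the 11 genes separated the genotypes.

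**Figure D2:**
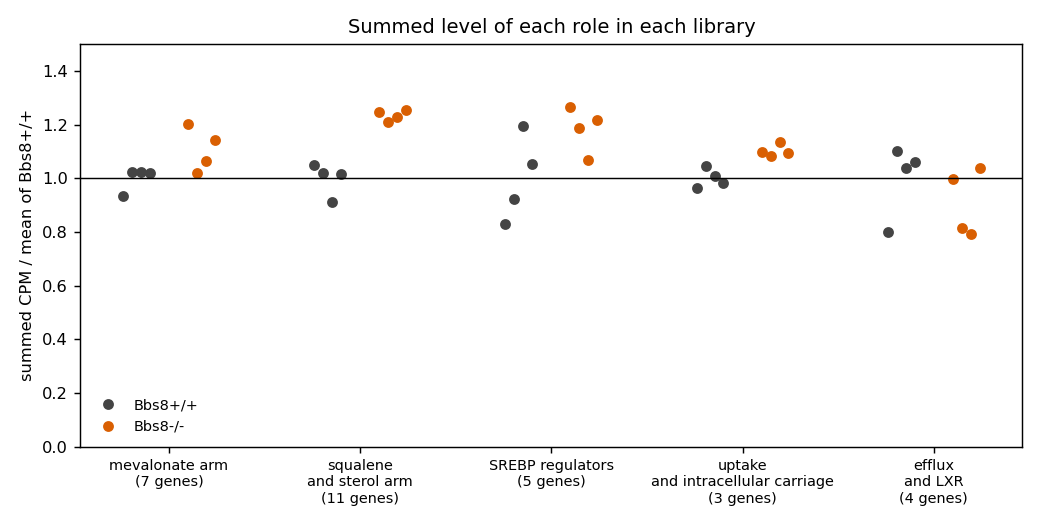
Summed level of the genes of each role in each library (y axis, CPM relative to the mean of the *Bbs8*+/+ libraries; points are libraries, with replicates 1 to 4 from left to right). The sums of the squalene and sterol arm (1.23-fold in the means) and the uptake group (1.10-fold) separate the genotypes. The efflux and LXR group (0.910-fold) overlaps. Abundant genes weigh most in these sums. In the uptake group *Lrp8* had means of 158 and 195 CPM, while *Scarb1* (115 and 109 CPM) and *Stard4* (13.7 and 12.7 CPM) were not higher.

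Among the SREBP regulators, *Srebf1* passed the test and *Srebf2* and *Insig2* lay higher without passing it. *Srebf1* (ENSMUSG00000020538) encodes SREBP1, which drives fatty acid genes and, in 1 isoform, sterol genes, and lies on chromosome 11 from 60199089 to 60222581 on the reverse strand. Its level was 7.12, 22.8, 38.1 and 27.6 CPM in *Bbs8*+/+ and 60.1, 45.6, 49.3 and 43.8 CPM in *Bbs8*-/- libraries. The genotypes did not overlap, the *Bbs8*+/+ libraries were spread widely, and replicate 1 was the lowest of them. Means were 23.9 ± 12.9 and 49.7 ± 7.29 CPM (SD, n = 4). Its log2 fold change was 1.07 ± 0.26 (standard error, adjusted p = 0.00426, edgeR's quasi-likelihood test), larger than that of 94.8% of all tested genes. It was 0.75 (adjusted p = 0.00896) without *Bbs8*+/+ replicate 1 and kept its call with each other library left out, but DESeq2's Wald test gave an adjusted p of 0.104. Exons at the 3′ end of *Srebf1* overlap *Rai1* on the other strand, which went from 16.0 ± 2.13 to 27.3 ± 1.30 CPM (SD, n = 4; log2 fold change 0.77, adjusted p = 0.0306, edgeR's quasi-likelihood test). *Rai1* lost its call without *Bbs8*+/+ replicate 2 (adjusted p = 0.0567) or 4 (0.107), without *Bbs8*-/- replicate 1 (0.0567), 2 (0.0573) or 4 (0.0545), and with no filter beyond 1 count (0.0520). Reads in the shared exons of this pair cannot be assigned to either gene without strand, and the isoforms of *Srebf1* share the 3′ end that was read.

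*Srebf2* encodes SREBP2, the main activator of cholesterol synthesis genes. It was at 35.6, 26.9, 35.2 and 34.6 CPM in *Bbs8*+/+ and 42.4, 47.4, 40.5 and 47.6 CPM in *Bbs8*-/- libraries. The genotypes did not overlap, yet the log2 fold change of 0.43 (95% interval 0.046 to 0.81) did not pass adjustment over all genes (adjusted p = 0.151, edgeR's quasi-likelihood test). *Insig2* encodes a protein that holds SCAP in the endoplasmic reticulum. Its level was 20.0, 20.2, 23.3 and 22.3 CPM in *Bbs8*+/+ and 54.7, 27.6, 25.7 and 30.1 CPM in *Bbs8*-/- libraries, without overlap, and replicate 1 of *Bbs8*-/- stood far above the rest. The log2 fold change was 0.68 (adjusted p = 0.0583, edgeR's quasi-likelihood test) and 0.38 (adjusted p = 0.370) without that library. Without *Bbs8*-/- replicate 2 or 3 it was 0.78 or 0.80 and passed the threshold (adjusted p = 0.0460 and 0.0364). *Insig1*, the paralog whose own transcription SREBP drives, was at 25.3 ± 6.66 and 24.0 ± 2.22 CPM (SD, n = 4; 95% interval of the log2 fold change −0.56 to 0.41). *Scap*, the escort of SREBP to the Golgi, was at 157 ± 24.1 and 156 ± 14.2 CPM (SD, n = 4) with an interval of −0.24 to 0.23, among the narrowest of the 29 genes.

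**Figure D3:**
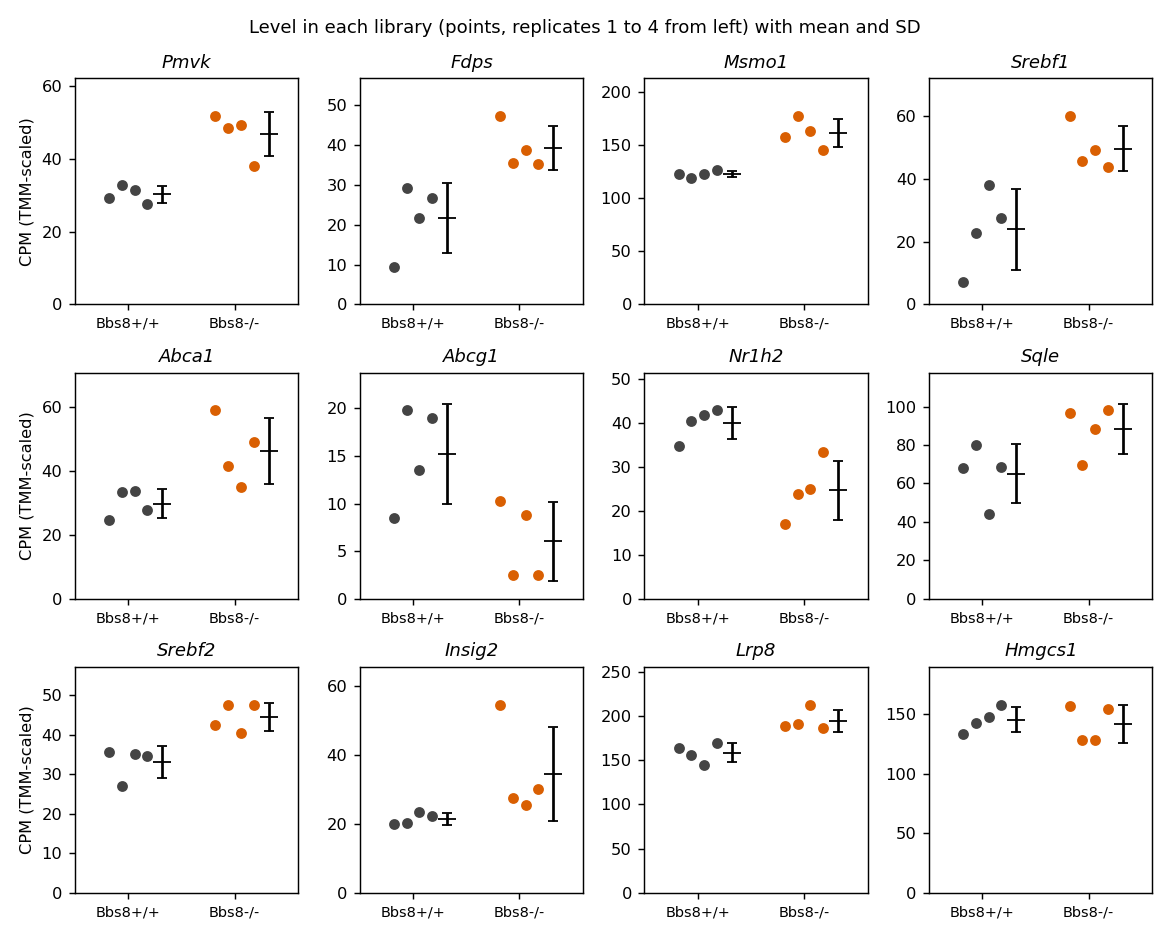
Level in each library (y axis, CPM, from 0; points are replicates 1 to 4 from left to right) of the 7 genes that changed and of *Sqle*, *Srebf2*, *Insig2*, *Lrp8* and *Hmgcs1*, with the mean and SD of 4 libraries beside the points. The genotypes separate in *Pmvk*, *Fdps*, *Msmo1*, *Srebf1*, *Abca1*, *Nr1h2*, *Srebf2*, *Insig2* and *Lrp8* and overlap in *Abcg1*, *Sqle* and *Hmgcs1*.

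No gene of uptake and intracellular carriage passed edgeR's quasi-likelihood test, with 1 of 3 at an unadjusted p under 0.05 and 1 by DESeq2. That gene was *Lrp8*, a lipoprotein receptor that also binds reelin. Its level was 163, 156, 145 and 169 CPM in *Bbs8*+/+ and 189, 191, 213 and 186 CPM in *Bbs8*-/- libraries. All *Bbs8*-/- libraries lay above all *Bbs8*+/+ libraries, at means of 158 ± 10.5 and 195 ± 12.4 CPM (SD, n = 4). The coefficient of variation of *Lrp8* beyond counting error, as edgeR estimates it, was the smallest of the 29 genes (10.3%). That estimate is drawn toward the trend of genes at a similar level and is not the spread measured between replicates. The log2 fold change of 0.30 stood just outside the threshold (adjusted p = 0.0529, edgeR's quasi-likelihood test), and DESeq2's Wald test placed it inside (adjusted p = 0.0257), as did leaving out *Bbs8*+/+ replicate 1 (adjusted p = 0.0346). *Scarb1*, the receptor that exchanges cholesterol with high-density lipoprotein, was at 115 ± 16.5 and 109 ± 5.66 CPM (SD, n = 4), and the 95% interval of its log2 fold change was −0.32 to 0.18. *Stard4*, which carries cholesterol between membranes in the cytosol, was at 13.7 ± 2.33 and 12.7 ± 3.92 CPM (SD, n = 4), with a wider interval of −0.75 to 0.54.

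Of the efflux and LXR genes, some were up-regulated and others down-regulated. *Abca1* (ENSMUSG00000015243) encodes the transporter that loads cholesterol and phospholipid onto lipid-poor apolipoproteins and lies on chromosome 4 from 53030787 to 53159895 on the reverse strand. It was at 24.4, 33.3, 33.6 and 27.6 CPM in *Bbs8*+/+ and 58.8, 41.3, 34.9 and 49.0 CPM in *Bbs8*-/- libraries. The genotypes did not overlap, but *Bbs8*-/- replicate 3 was close to the highest *Bbs8*+/+ libraries. Means were 29.7 ± 4.48 and 46.0 ± 10.3 CPM (SD, n = 4), and the log2 fold change was 0.63 ± 0.20 (standard error, adjusted p = 0.0325, edgeR's quasi-likelihood test). The call was lost without *Bbs8*+/+ replicate 1 (adjusted p = 0.0852) or 4 (0.0934) and without *Bbs8*-/- replicate 1 (0.140) or 4 (0.0839), with log2 fold changes of 0.50 to 0.60.

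*Abcg1* (ENSMUSG00000024030) encodes the transporter that passes cholesterol on to lipoprotein particles that already carry lipid, and lies on chromosome 17 from 31057675 to 31117988 on the forward strand. Its level was 8.48, 19.8, 13.5 and 19.0 CPM in *Bbs8*+/+ and 10.3, 2.51, 8.82 and 2.45 CPM in *Bbs8*-/- libraries, from 7 to 53 counts per library. *Bbs8*+/+ replicate 1, the lowest of its genotype, lay below 2 of the *Bbs8*-/- libraries, so the genotypes overlapped. Means were 15.2 ± 5.28 and 6.02 ± 4.13 CPM (SD, n = 4), and *Abcg1* fell by 1.35 on the log2 scale (standard error 0.42, adjusted p = 0.0275, edgeR's quasi-likelihood test). The call was lost without replicate 2 (adjusted p = 0.118) or 4 (0.115) of *Bbs8*+/+ and without replicate 2 (0.107) or 4 (0.110) of *Bbs8*-/-, with falls of 1.08 to 1.22.

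*Nr1h2* (ENSMUSG00000060601) encodes LXR beta, the LXR form found in most tissues, and lies on chromosome 7 from 44549616 to 44553951 on the reverse strand. Its level was 34.6, 40.4, 41.8 and 42.8 CPM in *Bbs8*+/+ and 16.9, 23.7, 24.9 and 33.3 CPM in *Bbs8*-/- libraries. Every *Bbs8*-/- library was below every *Bbs8*+/+ library, and replicate 4 came close to them. Means were 39.9 ± 3.67 and 24.7 ± 6.73 CPM (SD, n = 4), and *Nr1h2* fell by 0.69 on the log2 scale (standard error 0.22, adjusted p = 0.0299, edgeR's quasi-likelihood test). This was the least stable of the 7 calls when libraries were left out: it was lost without *Bbs8*+/+ replicate 2 (adjusted p = 0.0699), 3 (0.0718) or 4 (0.0930) and without *Bbs8*-/- replicate 1 (0.103), 2 (0.0697) or 3 (0.0588), and scaling by library size gave 0.0694. The log2 fold change stayed between −0.86 and −0.54 in the 8 fits with a library left out. *Nr1h3*, LXR alpha, had 3 to 18 counts per library, close to the floor in some, and its 95% interval of −1.35 to 1.57 shows neither a change nor its absence. Over the 4 genes together, levels summed to 70.2 to 96.8 CPM in *Bbs8*+/+ and 69.7 to 91.0 CPM in *Bbs8*-/- libraries.

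**Figure D4:**
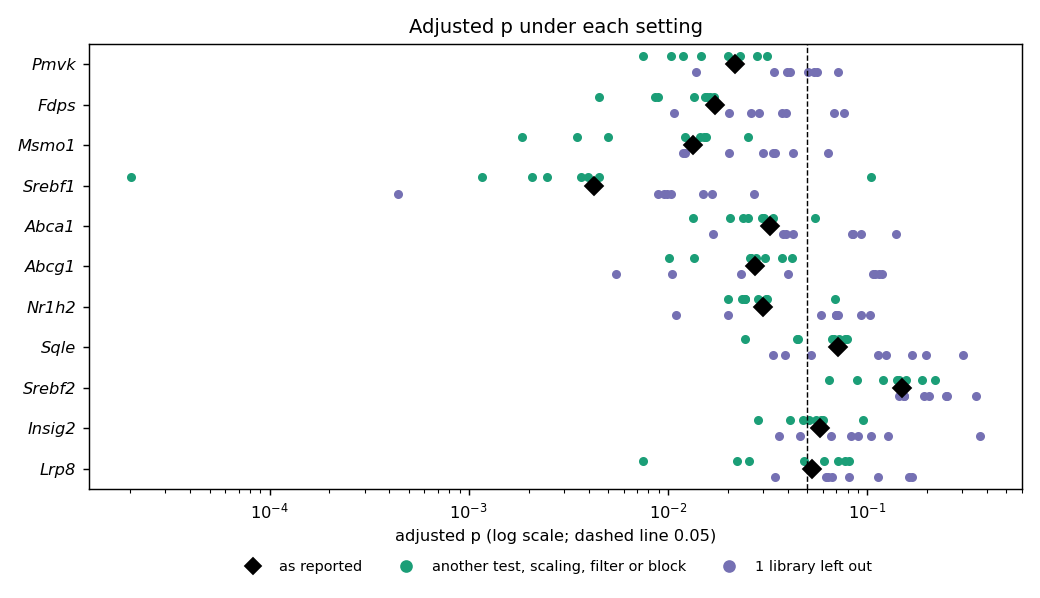
Adjusted p (x axis, log scale) of the 7 genes that changed and of *Sqle*, *Srebf2*, *Insig2* and *Lrp8* as reported (diamonds), with another test, scaling, filter or replicate block (green) and with 1 library left out (purple). Of the genes that changed, the 6 other than *Srebf1* cross the dashed line at 0.05 when some library is left out, as do *Sqle*, *Insig2* and *Lrp8*. *Srebf1* crosses it with DESeq2 alone (adjusted p = 0.104), and *Srebf2* does not cross it.

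A further 66 genes of the pathway, in 7 lists outside the 30, were read from the same fit. Of these, 61 were tested, 10 (16.4%) were up-regulated and 3 (4.92%) down-regulated, beside 5.46% and 6.8% of all tested genes, and their median log2 fold change was 0.085. The counts of single lists below stand beside the same shares of all tested genes. The lists were chosen with earlier results of these data known, so these shares are descriptions and not independent evidence. In the list of SREBP cleavage and sterol-regulated degradation, edgeR's quasi-likelihood test called 0 of 10 genes, with 2 at an unadjusted p under 0.05 and 0 by DESeq2. The isoprenoid branches, which draw on farnesyl diphosphate, also had 0 calls among 9 tested genes, with 4 at an unadjusted p under 0.05 and 0 by DESeq2.

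Of the 6 tested esterification and oxysterol enzymes, 2 were up-regulated. *Soat1*, which esterifies cholesterol for storage in droplets, was at 123, 139.7, 149 and 143 CPM in *Bbs8*+/+ and 295, 282, 293 and 325 CPM in *Bbs8*-/- libraries. All *Bbs8*-/- libraries were close together and far above the *Bbs8*+/+ libraries, and the log2 fold change was 1.11 ± 0.099 (standard error, adjusted p = 4.26e-11, edgeR's quasi-likelihood test). *Cyp7b1*, an oxysterol hydroxylase, was at 4.75, 1.49, 2.87 and 7.07 CPM in *Bbs8*+/+ and 23.0, 16.1, 9.62 and 11.2 CPM in *Bbs8*-/- libraries, without overlap (log2 fold change 1.87, adjusted p = 0.00209, edgeR's quasi-likelihood test). Of 11 genes of lysosomal sterol release and transfer, 1 was up-regulated, *Lipa*, the lysosomal acid lipase that frees cholesterol from its esters (72.7 ± 3.65 and 101 ± 9.86 CPM, SD, n = 4; adjusted p = 0.0111, edgeR's quasi-likelihood test).

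Other lipoprotein receptors and their control had 3 up-regulated and 1 down-regulated gene among 8 tested. *Lrp2*, megalin, was at 91.8 ± 4.52 and 136 ± 5.82 CPM (SD, n = 4; log2 fold change 0.57, adjusted p = 5.85e-04, edgeR's quasi-likelihood test). *Mylip*, a ubiquitin ligase that LXR induces and that marks lipoprotein receptors for degradation, was higher by 0.86 on the log2 scale (adjusted p = 0.00828, and 0.0591 without *Bbs8*-/- replicate 1, edgeR's quasi-likelihood test). The sorting receptor gene *Sorl1* was higher by 0.33 on the log2 scale (adjusted p = 0.0277, edgeR's quasi-likelihood test) and lost its call without *Bbs8*+/+ replicate 2 (0.0529), 3 (0.0692) or 4 (0.0755) and without *Bbs8*-/- replicate 1 (0.0670), 2 (0.0741) or 3 (0.0561). *Vldlr*, the receptor of triglyceride-rich lipoproteins, fell by 0.33 on the log2 scale (adjusted p = 0.0158, edgeR's quasi-likelihood test) and lost its call without *Bbs8*+/+ replicate 2 (0.0745) or 4 (0.0564), without *Bbs8*-/- replicate 2 (0.0510) and with library size scaling (0.0989).

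Other efflux transporters and LXR partners had 2 down-regulated genes and none up-regulated among 7 tested (by edgeR and by DESeq2 alike, and none higher at an unadjusted p under 0.05). *Pltp*, the phospholipid transfer protein, was at 358, 355, 369 and 389 CPM in *Bbs8*+/+ and 246, 233, 226 and 251 CPM in *Bbs8*-/- libraries, without overlap, and its log2 fold change was −0.62 ± 0.088 (standard error, adjusted p = 1.25e-06, edgeR's quasi-likelihood test). *Abcg4*, a sterol transporter related to *Abcg1*, was at 38.3 ± 7.66 and 21.8 ± 4.19 CPM (SD, n = 4) and overlapped between genotypes by a narrow margin (log2 fold change −0.81, adjusted p = 0.0116, edgeR's quasi-likelihood test).

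Fatty acid genes that SREBP1 activates had 4 up-regulated and 0 down-regulated members of 10 tested by edgeR's quasi-likelihood test, and 1 lower at an unadjusted p under 0.05 and by DESeq2. *Scd2* and *Scd1*, desaturases that make monounsaturated fatty acids, had log2 fold changes of 0.83 ± 0.11 and 1.26 ± 0.27 (standard error, adjusted p = 6.28e-07 and 7.96e-04, edgeR's quasi-likelihood test). *Scd2* was at 113, 127, 156 and 151 CPM in *Bbs8*+/+ and 256, 201, 252 and 266 CPM in *Bbs8*-/- libraries, which did not overlap. The elongase gene *Elovl6* was higher by 0.52 on the log2 scale (adjusted p = 0.0126, and 0.0637 without *Bbs8*-/- replicate 1, edgeR's quasi-likelihood test). The desaturase gene *Fads1* was higher by 0.40 (adjusted p = 0.0180, edgeR's quasi-likelihood test) and lost its call without *Bbs8*+/+ replicate 2 (0.0768) and without *Bbs8*-/- replicate 2 (0.0637) or 3 (0.118). The enzymes that build palmitate were not called: *Acly*, *Acaca* and *Fasn* had log2 fold changes of −0.24, 0.16 and −0.11.

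**Figure D5:**
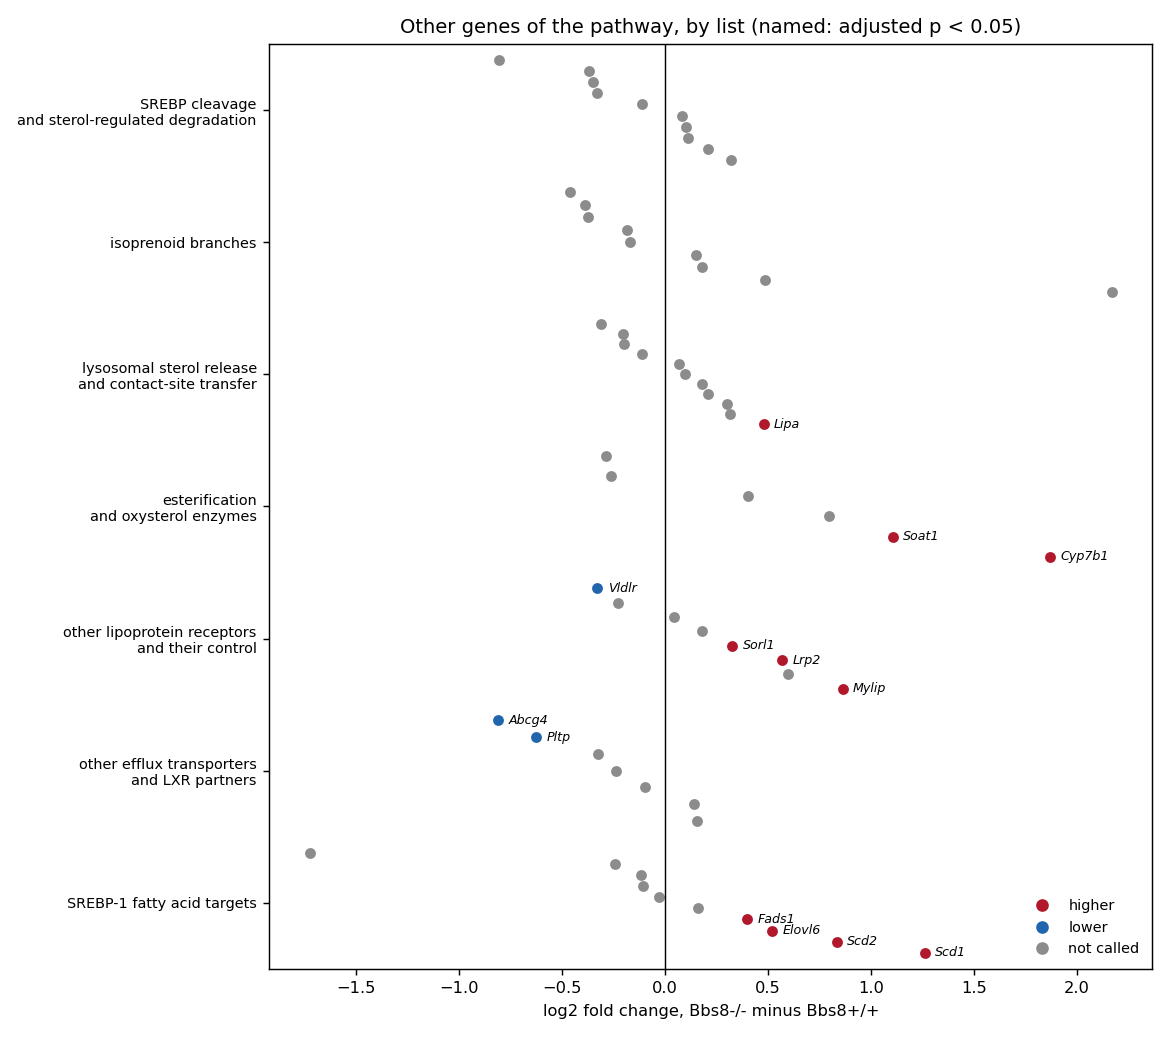
Log2 fold change of the 61 tested pathway genes outside the 30 (x axis, *Bbs8*-/- over *Bbs8*+/+), 1 point per gene, by list. Names mark the 10 up-regulated (red) and 3 down-regulated (blue) genes, with *Cyp7b1* at 1.87 and *Abcg4* at −0.81 at the ends of the called range.

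The variation among libraries that edgeR estimated differed between the genes. Its coefficient of variation beyond counting error ran from 10.3% in *Lrp8* and 10.8% in *Msmo1* to 46.2% in *Tm7sf2* and 54.9% in *Nr1h3*. These estimates are drawn toward the trend of genes at a similar level and are not the spread measured between replicates. *Bbs8*+/+ replicate 1 held the lowest level of its genotype in *Fdps*, *Srebf1*, *Abca1*, *Abcg1*, *Nr1h2* and the summed mevalonate arm, among others. The same library held the highest level of its genotype in *Mvd*, *Idi1*, *Lss*, *Cyp51*, *Ebp*, *Srebf2* and the summed squalene and sterol arm. Its counts also differed more from the other *Bbs8*+/+ libraries (chi-square per gene 5.80 to 7.12) than those differed from each other (2.82 to 3.32), and pairs of *Bbs8*-/- libraries were at 4.11 to 4.97. Without *Bbs8*+/+ replicate 1, *Pmvk*, *Msmo1*, *Srebf1* and *Lrp8* were up-regulated and *Abcg1* and *Nr1h2* down-regulated. Without *Bbs8*-/- replicate 1, *Msmo1* and *Srebf1* were the 2 up-regulated genes and *Abcg1* the 1 down-regulated gene. Summed over all 30 genes, levels were 1243 to 1339.6 CPM in *Bbs8*+/+ and 1460.3 to 1564 CPM in *Bbs8*-/- libraries, 1.15-fold higher in the means. Abundant genes weigh most in this sum as well.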

How the data were processed

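QuantSeq 3′ libraries were made from total RNA of P29 RPE, 4 from *Bbs8*+/+ and 4 from *Bbs8*-/- mice. The authors trimmed reads with BBDuk and used STAR for alignment to mm10 and htseq-count for counting on Ensembl genes. They deposited raw counts of unique reads, 1 table per library. Rows that name no gene (reads outside genes, ambiguous or not unique) held 51.0% to 54.2% of the reads and were left out. Multi-mapping reads are not counted, which lowers genes with close copies.

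Identifiers were matched to symbols and positions with GENCODE M21 (GRCm38, the build of the files; 31011 of 31053 matched). Genes that reached 1 CPM in 4 or more of 8 libraries were tested in R 4.3.3 with edgeR 4.0.16 (TMM, quasi-likelihood test, two-sided, Benjamini-Hochberg over 12889 genes, threshold 0.05). The study's filter on multi-mapping reads needs alignments and was not repeated. DESeq2 1.42.0 and 16 other settings served as alternatives. The fit was tested on simulated data. Genes named are the 30, *Ttc8*, the pathway genes that passed the threshold, overlapping neighbours and a few named after their values were seen. The 30 genes, the pathway lists and the marker lists were chosen with earlier results of these data known, so they are descriptions and not independent evidence. Counts on genes were 2389835 to 3093428 per library, and intervals are 95% intervals of the fit.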

Additional observations from a re-analysis of the deposited data

Results flagged for a closer look

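In 5 of the 60 groups of 4 libraries, 1 library stood apart from the others by Dixon's criterion, which chance meets in about 1 of 20 groups. *Acat2* was at 24.6 CPM in *Bbs8*+/+ replicate 3, against 17.5 to 18.3 CPM in the others, and at 27.3 CPM in *Bbs8*-/- replicate 4, against 13.6 to 15.2 CPM. *Idi1* was at 3.73 CPM in *Bbs8*+/+ replicate 1, against 0.410 to 0.747 CPM. *Srebf2* was at 26.9 CPM in *Bbs8*+/+ replicate 2, against 34.6 to 35.6 CPM. *Insig2* was at 54.7 CPM in *Bbs8*-/- replicate 1, against 25.7 to 30.1 CPM.

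The share of reads outside annotated genes, which enters no comparison, was at least 19.8% in *Bbs8*-/- libraries, above the 17.0% to 18.4% of *Bbs8*+/+ libraries. Its part in the differences was not tested.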

How the results depend on the processing

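Of the 30 genes, 5 were up-regulated and 2 down-regulated as reported. The counts were 8 and 1 with library size scaling (all genes 1008 and 654, in place of 704 and 877). A filter at 10 CPM gave 8 and 2 of 27 tested, which is 37% beside 18.7% of all tested genes. In both settings *Insig2*, *Lrp8* and *Sqle* were added. At an adjusted p of 0.01 the counts were 1 and 0 (all genes 394 and 571, pathway genes 6 and 1). Leaving out 1 library gave 2 to 6 and 0 to 2 (all genes 553 to 645 and 689 to 847). Pathway genes went from 3 to 5 down-regulated with the likelihood ratio test. *Srebf1* lost its call with DESeq2 (adjusted p = 0.104). The sign turned in genes that were never called, with log2 fold changes near 0: with library size scaling *Hmgcs1* (0.054), *Mvk* (0.084), *Mvd* (0.045), *Scap* (0.085), *Insig1* (0.016) and *Scarb1* (0.017); with DESeq2 *Mvk* (0.0034) and *Scap* (0.0034); with DESeq2-type factors in edgeR *Mvk* (0.0033) and *Scap* (0.0032); and with a filter at 10 CPM *Mvk* (0.021) and *Scap* (0.021). With 1 library left out, ranges that crossed 0 were −0.084 to 0.013 for *Hmgcs1*, −0.20 to 0.11 for *Mvk*, −0.18 to 0.20 for *Mvd*, −0.28 to 0.26 for *Tm7sf2*, −0.0035 to 0.33 for *Ebp*, −0.073 to 0.097 for *Scap*, −0.17 to 0.13 for *Insig1* and −0.41 to 0.38 for *Nr1h3*. The cause was not tested. Same-numbered libraries did not deviate together over all tested genes (correlations −0.029 to 0.0086). The labels do not say whether the numbers pair littermates, and these correlations cannot decide it, since counting error alone can hide a shared deviation. With the replicate block, 4 genes were up-regulated and 2 down-regulated (20.7% beside 11.5% of all tested genes). There *Abca1* missed the threshold (0.62, adjusted p = 0.0547, edgeR's quasi-likelihood test), and *Scap* (0.0026) and *Nr1h3* (−0.098) turned sign. At these depths genes of a few counts, such as *Idi1*, *Tm7sf2* and *Nr1h3*, could show only large changes.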

Other observations

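A few pathway genes outside the 30 lay near the threshold and were picked after their values were seen. *Acss2*, which makes acetyl-CoA from acetate, was at 5.77, 6.73, 8.60 and 7.45 CPM in *Bbs8*+/+ and 2.06, 0.359, 4.81 and 1.40 CPM in *Bbs8*-/- libraries (log2 fold change −1.72, adjusted p = 0.0670 with edgeR's quasi-likelihood test and 0.0374 with DESeq2). *Spring1* and *Mbtps1*, which belong to the machinery that cuts SREBP in the Golgi, had log2 fold changes of −0.80 and −0.35 (adjusted p = 0.0624 and 0.0686, edgeR's quasi-likelihood test), and the genotypes were fully separated in both, with *Bbs8*-/- libraries below. *Ggps1*, which extends farnesyl diphosphate to the geranylgeranyl unit of prenylated proteins, had a value of −0.37 on the log2 scale (adjusted p = 0.0706, edgeR's quasi-likelihood test). With 1 library left out, *Acss2* passed without *Bbs8*-/- replicate 3 (adjusted p = 0.0182), *Spring1* without *Bbs8*-/- replicate 4 (0.0300), *Mbtps1* without *Bbs8*+/+ replicate 1 (0.0499) and *Ggps1* without *Bbs8*-/- replicate 1 (0.0158).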
